A study of Mus musculus with 6 samples.

Results

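The genes described here are the ligands, the secreted antagonists and the ID target genes of BMP (bone morphogenetic protein) signalling in primary mouse mesangial cells. They comprise 4 ligands (Bmp2, Bmp4, Bmp6 and Bmp7), 2 antagonists (Grem1 and Nog) and 4 targets (Id1, Id2, Id3 and Id4). They were chosen by gene symbol, and each of the 10 genes matched 1 of the 19730 rows of the expression table. Mesangial cells are the contractile support cells between the capillaries of the kidney glomerulus, and TGF-β1 (transforming growth factor beta 1) is a secreted protein that drives scarring in the kidney. RNA was sequenced in 3 Control libraries and in 3 libraries of cells that had been given 10 ng/ml of TGF-β1 for 72 h, to ask which genes change with the treatment. The cells of both groups were used at passages 3 to 6 and shared a medium with 25.5 mM glucose and 20% foetal bovine serum. What the Control cells received in place of TGF-β1 is not given in the sources used here. The samples were taken in triplicate, and the study calls the replicates of its parallel methylation and histone assays biological. For the RNA libraries it is not given whether those of a group came from separate cultures, so p-values measure only the spread between these libraries, which may be technical.

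BMPs belong to the same superfamily as TGF-β1. They bind type I and type II receptor kinases, which phosphorylate SMAD1, SMAD5 and SMAD9, and these SMADs enter the nucleus with SMAD4 and activate target genes. Gremlin 1 (from Grem1) and noggin (from Nog) bind BMPs outside the cell and keep them from their receptors. The ID genes are classical direct targets of BMP. Their proteins lack a DNA-binding domain, pair with E proteins such as those of Tcf3, Tcf4 and Tcf12, and so keep basic helix-loop-helix factors from DNA. In the kidney, BMP7 is known as a factor that opposes the profibrotic action of TGF-β1, and gremlin 1 rises in diabetic kidney disease.

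BMP-activated SMADs are known to bind a GC-rich element, best studied in front of the ID genes, and the stretches of the promoters that hold its core are shown for that reason. The palindrome GGCGCC was searched for on both strands in the 2000 bases before the transcript start of each row on the mouse genome build mm9. It occurred once each in 5 of the 10 genes, and 24.2% of the 19698 windows of this length hold it. Each stretch is read 5′ to 3′ on the strand of its gene, and the capitals mark the palindrome.
Id1, chr2:152560876-152560905, plus strand, palindrome beginning 1099 bases before the start: gaccgcccgcgcGGCGCCagcctgacagcc
Id2, chr12:25781171-25781200, minus strand, beginning 231 bases before the start: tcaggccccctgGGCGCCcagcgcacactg
Id4, chr13:48356325-48356354, plus strand, beginning 459 bases before the start: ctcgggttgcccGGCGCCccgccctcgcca
Grem1, chr2:113598866-113598895, minus strand, beginning 80 bases before the start: cgcggcggcgacGGCGCCtgaccaatggag
Nog, chr11:89164315-89164344, minus strand, beginning 459 bases before the start: tggccctggcggGGCGCCtagagccccatt
These letters were not found in the windows of Bmp2, Bmp4, Bmp6, Bmp7 and Id3. The SMAD palindrome GTCTAGAC, which does not overlap with GGCGCC, was in 1.66% of all windows and in that of none of the 10 genes. The genes that hold GGCGCC went different ways in the values that follow. Grem1 rose, Id2 fell, Id1 was not called changed, and Id4 and Nog were low in every library.

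Expression is given as FPKM, the fragments of a transcript per kilobase of its length and per M (mega) mapped fragments, so levels of different genes are compared per length. Depth, recovered from the steps between the lowest FPKM values with an assumed fragment length of 200 nt, was 10.1 to 11.1 M fragments per library, and fragment numbers below are approximate for that reason. The libraries of replicate 2 stood apart in both groups. Across protein-coding rows, their deviations from the group means correlated at 0.418, against at most 0.210 for any other pair of a Control and a TGF-β1 library (rows are not independent, so this is a description). Values are therefore also given for replicates 1 and 3 alone and with a term for the replicate 2 libraries in the model. Of 7 mesangial markers, Pdgfrb was at 37.5 ± 4.82 FPKM in Control and 29.2 ± 0.751 FPKM with TGF-β1 (SD, n = 3, limma adjusted p 0.0396) and Acta2, the most abundant, at 997 ± 89.7 and 3887 ± 348 FPKM (limma adjusted p 8.64e-05), but Itga8, Des and Thy1 stayed under 1 FPKM in each library. Cspg4 rose from 0.0735 ± 0.0367 to 1.21 ± 0.257 FPKM (SD, n = 3, limma adjusted p 0.000951 in a fit without a filter on low values). Gata3 was not called, at 1.76 ± 0.882 FPKM in Control and 1.03 ± 0.211 FPKM with TGF-β1 (SD, n = 3, limma adjusted p 0.276). Some markers of other cell types moved with the groups too. The summed level of 5 tubular epithelial markers was 115 to 148 FPKM in Control and 6.37 to 7.67 FPKM with TGF-β1, nearly all of it Cdh16, while Cdh1, Aqp2 and Slc12a1 stayed under 1 FPKM. Lrp2 moved with Cdh16, from 1.09, 1.93 and 1.27 FPKM to 0.245, 0.233 and 0.212 FPKM. Slc12a1 went the other way at a lower level, from 0.0408, 0.102 and 0.0417 FPKM to 0.328, 0.511 and 0.291 FPKM. The sum of 4 macrophage markers was 8.19 to 9.58 against 2.26 to 3.24 FPKM, carried by Csf1r and Cd68, with Ptprc listed at 0 in all 3 Control libraries. Of these, Csf1r fell, from 6.27 ± 0.979 to 0.411 ± 0.156 FPKM (SD, n = 3, limma adjusted p 8.56e-05). Cd68 was not called, at 2.79 ± 0.836 and 2.22 ± 0.448 FPKM (SD, n = 3, limma adjusted p 0.393). The sum of 5 podocyte markers was 19.7 to 24.9 against 12.6 to 13.7 FPKM, led by Synpo, with Nphs1 under 1 FPKM, and that of 6 endothelial markers was 1.26 to 1.54 against 0.701 to 0.985 FPKM. The part of other cells in the results below was not tested. In RNA from whole cultures, fewer cells that express a gene and less RNA per cell cannot be told apart.

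TGF-β1 treatment was accompanied by lower Bmp4, Bmp6 and Id2 and by higher Grem1. Of the 10 genes, 6 had a mean of at least 1 FPKM over the 6 libraries and were tested among 11898 rows (limma on log2(FPKM + 1), Benjamini-Hochberg adjustment, called at an adjusted p under 0.05). Of these 6, 4 were called. The treatment moved much of the transcriptome, and 48.1% of all tested rows were called, so the count itself does not set these genes apart. Of the 4, 1 was higher (24.5% of tested rows were called higher) and 3 were lower (23.6% were called lower). When each library was rescaled to the summed FPKM of its protein-coding rows (300 nt or longer), the calls over all rows went from 2911 higher and 2810 lower to 2015 higher and 3927 lower, and the 4 genes were still called in the same directions. The values of Control and TGF-β1 libraries did not overlap in 4 of the 6 tested genes, against 59.4% of tested rows, and in 6 of all 10 genes, against 44.1% of all rows.

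**Figure D1:**
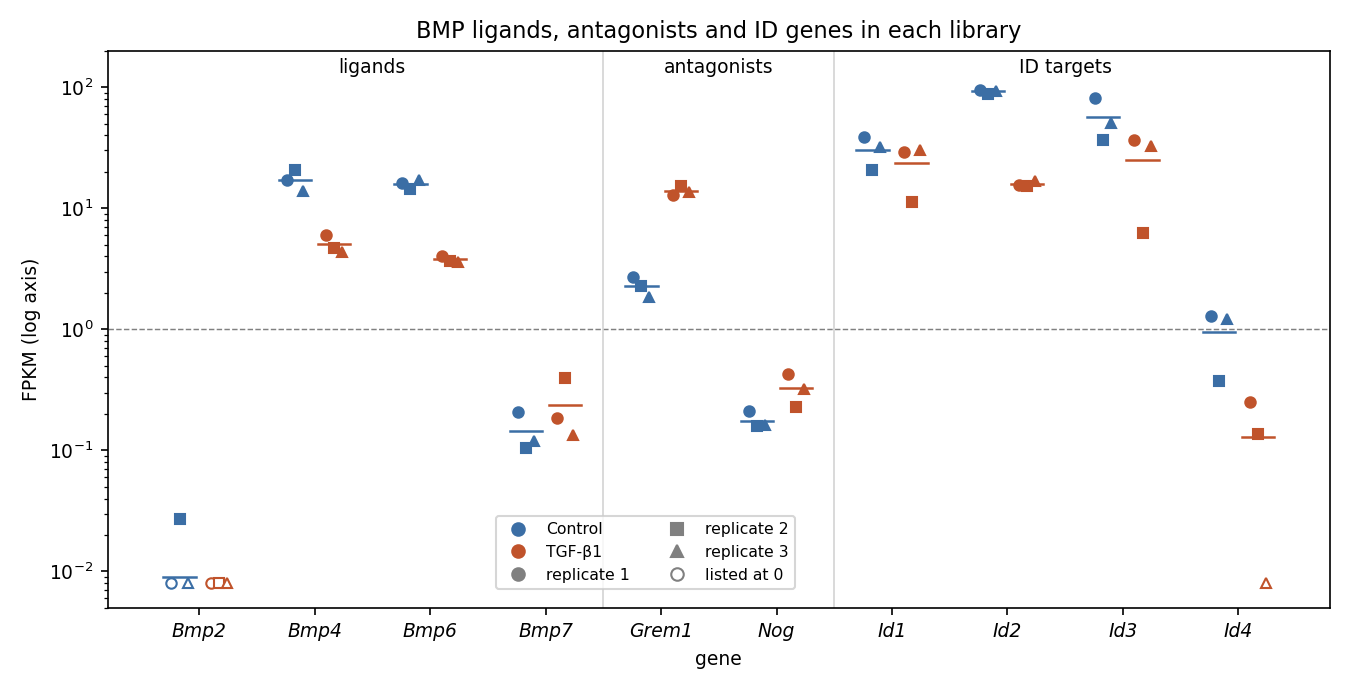
FPKM on a log axis (y) of the 10 genes (x) in each library. Blue symbols are Control and orange symbols TGF-β1, the shape gives the replicate, horizontal bars are group means, open symbols at the foot of the plot are values listed at 0, and the dashed line is 1 FPKM. Bmp4, Bmp6, Grem1 and Id2 separate by group, whereas Id1 and Id3 are lowest in replicate 2 of each group.

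Among the ligands, only Bmp4 and Bmp6 were expressed above 1 FPKM. Bmp4 encodes a ligand that patterns the early embryo and the budding ureter. Its level was 17.1, 20.7 and 13.8 FPKM in Control replicates 1 to 3 and 6.05, 4.73 and 4.36 FPKM in TGF-β1 replicates 1 to 3. Each Control library was more than 2 times above the highest TGF-β1 library. The means were 17.2 ± 3.43 and 5.05 ± 0.888 FPKM (SD, n = 3), which is 3.41-fold lower with TGF-β1. The difference on the log2(FPKM + 1) scale was -1.58 (SE 0.17, 95% interval -2.0 to -1.17, limma adjusted p 0.000664). In replicates 1 and 3 alone, where 35.3% of tested rows were called, it was -1.41 (limma adjusted p 0.0127). Bmp4 (chr14:47003195-47010344 on mm9, minus strand) overlaps Gm15217 and Gm15222 on the opposite strand, and the sources do not say if reads were assigned by strand, so reads of these genes and of Bmp4 cannot be told apart.

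Bmp6, whose protein is known above all as a regulator of iron balance through hepcidin, was expressed at nearly the same level as Bmp4 in Control and fell too. Control libraries had 16.1, 14.5 and 17.3 FPKM and TGF-β1 libraries 4.02, 3.70 and 3.61 FPKM. The spread within each group was small beside the gap between them. The mean fell from 15.9 ± 1.40 to 3.78 ± 0.218 FPKM (SD, n = 3), 4.22-fold lower, with a log2 difference of -1.82 (SE 0.095, 95% interval -2.05 to -1.59, limma adjusted p 4.42e-05). In replicates 1 and 3 alone the difference was -1.88 (limma adjusted p 0.0028). Bmp6 (chr13:38436995-38592183, plus strand) overlaps Txndc5 on the opposite strand. The ratio of Bmp4 to Bmp6 was 1.06, 1.43 and 0.801 in the Control libraries and 1.5, 1.28 and 1.21 in the TGF-β1 libraries, and the groups overlapped. The order of these ligands was thus not settled in Control, where their ranges overlapped, whereas with TGF-β1 Bmp4 was above Bmp6 in each library.

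Bmp2 and Bmp7 were close to or below the limit of detection. Bmp2 (chr2:133377895-133388621, plus strand) was listed at 0 in 5 of the 6 libraries and at 0.0270 FPKM in Control replicate 2, which corresponds to 1 fragment. A count of 0 allows up to 3 fragments, which is 0.0807 to 0.0884 FPKM in these libraries, counting error only, so a difference was not detectable at this depth. Bmp7 (chr2:172693513-172765822, minus strand) was at 0.209, 0.104 and 0.119 FPKM in Control and at 0.184, 0.398 and 0.133 FPKM with TGF-β1, about 4 to 14 fragments per library. The groups overlapped, and the highest value was that of TGF-β1 replicate 2. Without the filter on low values, the log2 differences were -0.013 for Bmp2 and 0.11 for Bmp7, with limma adjusted p-values of 0.790 and 0.437. The interval of the Bmp7 difference was -0.11 to 0.33. Of 11 further BMP and GDF ligands looked up, 6 had a row, Bmp3, Bmp8a, Bmp8b, Bmp15, Gdf6 and Gdf7, and each stayed under 1 FPKM in all libraries.

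Of the antagonists, Grem1 rose and Nog stayed low. Grem1 was at 2.68, 2.29 and 1.83 FPKM in Control and at 12.8, 15.3 and 13.7 FPKM with TGF-β1. A level of 3 FPKM was reached in 0 of 3 Control libraries and in 3 of 3 TGF-β1 libraries. The mean rose from 2.27 ± 0.426 to 14 ± 1.28 FPKM (SD, n = 3), 6.15-fold, and the log2 difference was 2.20 (SE 0.13, 95% interval 1.89 to 2.51, limma adjusted p 6.46e-05). Of all tested rows, 1.27% had a difference at least as high. The difference was 2.14 in replicates 1 and 3 alone (limma adjusted p 0.00443). Grem1 lies at chr2:113586321-113598803 on the minus strand, has 1 annotated transcript and overlaps no other annotated gene. Its GGCGCC, shown above, is the nearest to a transcript start among the 5.

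Nog was at 0.210, 0.158 and 0.162 FPKM in Control and at 0.423, 0.230 and 0.322 FPKM with TGF-β1. These values rest on 4, 3 and 3 fragments against 8, 4 and 6. The TGF-β1 libraries were all above the Control libraries in FPKM, but the lowest of the former and the highest of the latter both rest on 4 fragments. In the test without the filter, the log2 difference was 0.17 (95% interval 0.0022 to 0.34), with an unadjusted limma p of 0.0479 and an adjusted p of 0.120, so Nog was not called. It was called without TGF-β1 replicate 2 (difference 0.22, limma adjusted p 0.0456) and when the trend with GC content was removed (0.30, limma adjusted p 0.00568), a setting added after the data were seen. Nog (chr11:89161952-89163873, minus strand) consists of 1 exon.

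**Figure D2:**
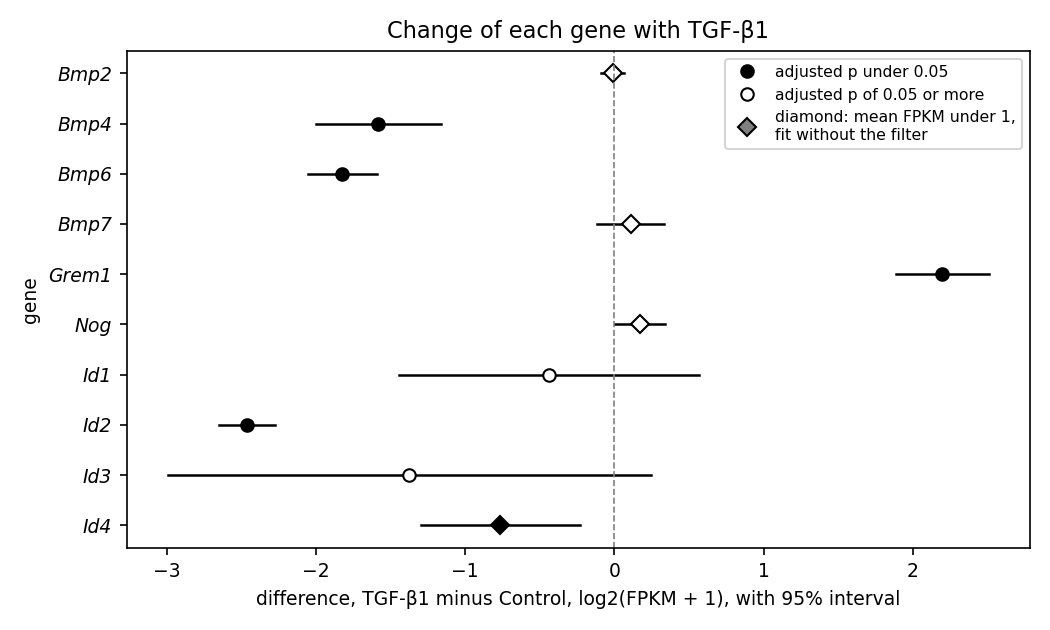
Difference between TGF-β1 and Control on the log2(FPKM + 1) scale (x) for each of the 10 genes (y), with 95% intervals from limma. Filled symbols have an adjusted p under 0.05, and diamonds are genes with a mean under 1 FPKM, taken from the test without the filter. The intervals of Id1 and Id3 are the widest and include 0, while that of Id2 is the narrowest among the tested genes.

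Per length, the sum of these 4 ligands exceeded that of Grem1 and Nog in each Control library, and the reverse held in each TGF-β1 library. The summed level of the 4 ligands was 33.4, 35.3 and 31.2 FPKM in Control and 10.3, 8.83 and 8.10 FPKM with TGF-β1. That of Grem1 and Nog was 2.89, 2.45 and 1.99 FPKM in Control and 13.2, 15.6 and 14.1 FPKM with TGF-β1. The ratio of the ligand sum to that of Grem1 and Nog was therefore 11.5, 14.4 and 15.6 in the Control libraries and 0.776, 0.567 and 0.576 in the TGF-β1 libraries. The sums fell 3.67-fold and rose 5.84-fold, respectively. The reversal holds for these antagonists only. The 14 other secreted antagonists and modulators with a row summed to 365 to 434 FPKM in Control and 602 to 657 FPKM with TGF-β1. That was above the ligands in each library. Fstl1 was the largest part of it, with means of 219 FPKM in Control and 444 FPKM with TGF-β1. Nbl1 alone, at 45.5 to 59.9 FPKM in Control and 58.0 to 63.2 FPKM with TGF-β1, was also above the ligand sum in each library. All these sums add genes that were chosen with their changes known, so no test is given. FPKM compares transcripts per length and does not measure the proteins or their binding.

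**Figure D3:**
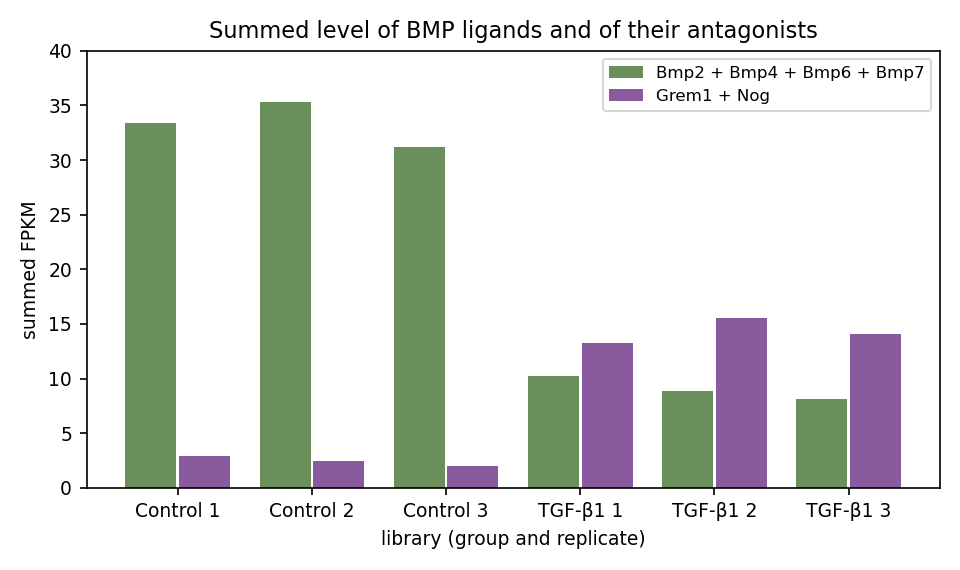
Summed FPKM (y, from 0) of Bmp2, Bmp4, Bmp6 and Bmp7 (green bars) and of Grem1 and Nog (purple bars) in each of the 6 libraries (x). The green bar is the higher in each Control library, at 31.2 FPKM or more, and the purple bar is the higher in each TGF-β1 library, at 13.2 FPKM or more.

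The ID genes did not move alike, and Id2 had the clearest change. ID2 opposes differentiation in many lineages, as do ID1 and ID3. Id2 was at 95.6, 87.7 and 93.6 FPKM in Control and at 15.6, 15.2 and 16.9 FPKM with TGF-β1. Within a group the libraries were within a narrow range, replicate 2 included. The mean fell from 92.3 ± 4.08 to 15.9 ± 0.870 FPKM (SD, n = 3), 5.80-fold lower. The log2 difference was -2.47 (SE 0.077, 95% interval -2.65 to -2.28, limma adjusted p 8.43e-06), and 1.16% of tested rows had a difference at least as low. By replicate number the differences were -2.54, -2.45 and -2.40. Id2 (chr12:25778666-25780957, minus strand) has 1 annotated transcript and overlaps no other gene.

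Id1, the member best known as a readout of BMP signalling, was not called changed. It was at 39.1, 20.6 and 31.9 FPKM in Control and at 29.1, 11.2 and 30.3 FPKM with TGF-β1. The groups overlapped, and replicate 2 was the lowest library in each. The means were 30.6 ± 9.30 and 23.5 ± 10.7 FPKM (SD, n = 3). The log2 difference was -0.44 (SE 0.42, 95% interval -1.45 to 0.57, limma adjusted p 0.420), an interval that holds a clear fall as well as no change. In replicates 1 and 3 alone it was -0.24 (limma adjusted p 0.212), and with the term for the replicate 2 libraries the limma adjusted p was 0.0609. Without TGF-β1 replicate 2 the difference was 0.0056 (limma adjusted p 0.988). Id1 lies at chr2:152561987-152563146 on the plus strand.

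Id3 had a lower mean with TGF-β1, but its call depended on how the replicate 2 libraries were treated. It was at 82.2, 36.5 and 50.5 FPKM in Control and at 36.5, 6.26 and 32.9 FPKM with TGF-β1. Control replicate 2 and TGF-β1 replicate 1 met at the same level, and TGF-β1 replicate 2 was far below every other library. The means were 56.4 ± 23.4 and 25.2 ± 16.5 FPKM (SD, n = 3), 2.24-fold lower. The log2 difference was -1.37 (SE 0.67, 95% interval -2.99 to 0.25), and the limma adjusted p was 0.137. With the term for the replicate 2 libraries the adjusted p was 0.0243 by limma (50.0% of tested rows called), and with the replicate number as a block it was 0.0337 by limma (45.3% called). In replicates 1 and 3 alone the difference was -0.88 (limma adjusted p 0.0672), and without TGF-β1 replicate 2 it was -0.61 (limma adjusted p 0.202). Id3 lies at chr4:135699412-135701670 on the plus strand and has 3 annotated transcripts.

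Id4 was the least abundant of the ID genes. It was at 1.3, 0.371 and 1.21 FPKM in Control and at 0.250, 0.135 and 0 FPKM with TGF-β1. These values correspond to 21, 6 and 19 fragments against 4, 2 and 0, and the groups did not overlap. In the test without the filter the log2 difference was -0.76 (SE 0.22, 95% interval -1.29 to -0.23) with a limma adjusted p of 0.0427, where 16.0% of all rows were called lower and 30.5% in either direction. The call rests on few fragments. It was lost with the replicate block (limma adjusted p 0.0607) and in 5 of 6 fits without 1 of the libraries (limma adjusted p 0.145 without Control replicate 1, 0.148 without Control replicate 3, and 0.10, 0.124 and 0.151 without TGF-β1 replicates 1, 2 and 3). Id4 (chr13:48356796-48359405, plus strand) overlaps the long noncoding RNA A330033J07Rik on the opposite strand.

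The order of the ID genes within a library also differed between the groups. In each Control library Id2 was above Id3 and Id3 above Id1. In TGF-β1 replicates 1 and 3 the order was Id3, Id1 and Id2, and in TGF-β1 replicate 2 it was Id2, Id1 and Id3. The ratio of Id2 to Id1 was 2.44, 4.25 and 2.93 in the Control libraries and 0.535, 1.36 and 0.558 in the TGF-β1 libraries, and the ratio of Id3 to Id1 was 2.10, 1.77 and 1.58 against 1.25, 0.559 and 1.09. Neither ratio overlapped between groups, and as the ratios were chosen after the order was seen, no test is given. The summed level of the 4 ID genes was 218, 145 and 177 FPKM in Control and 81.4, 32.8 and 80.0 FPKM with TGF-β1.

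**Figure D4:**
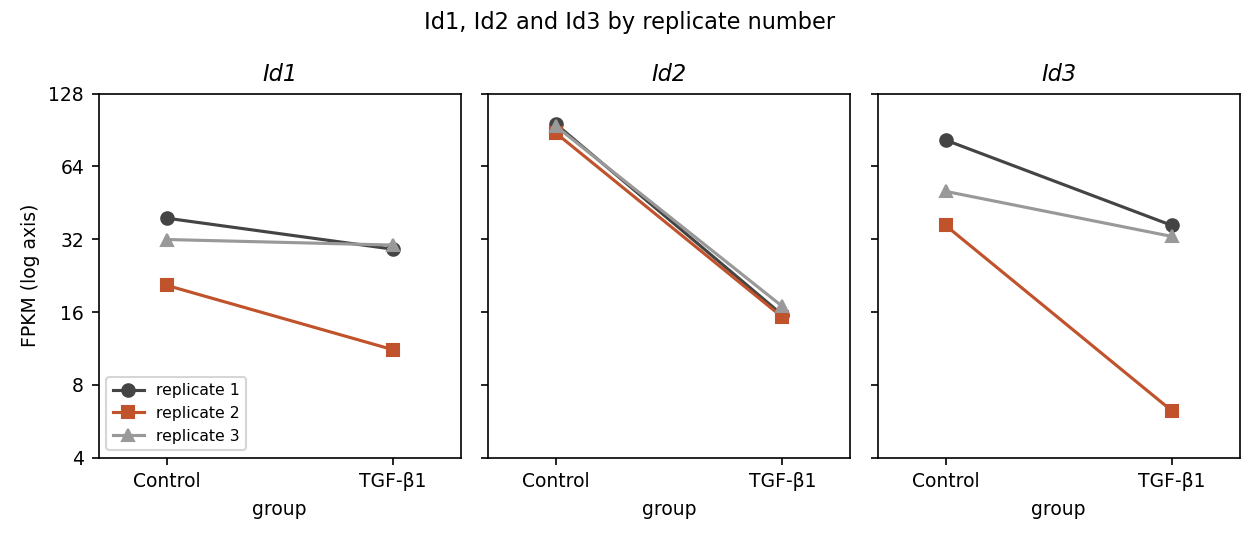
FPKM on a log axis (y) of Id1, Id2 and Id3 in Control and TGF-β1 libraries (x), with libraries of the same replicate number joined by a line. The lines of Id2 lie on each other, whereas those of replicate 2 (orange) lie below the others for Id1 and Id3.

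Replicate 2 was low for Id1 and Id3 in both groups and not for Id2. On the log2(FPKM + 1) scale, Id1 in replicate 2 lay 0.75 below the mean of replicates 1 and 3 in Control (a difference of -0.75) and 1.33 below it with TGF-β1 (-1.33). For Id3 the differences were -0.80 in Control and -2.30 with TGF-β1. Only 2.37% and 2.13% of tested rows were lower still in Control replicate 2, and 1.83% and 0.765% in TGF-β1 replicate 2, for Id1 and Id3 respectively. For Id2 the differences were -0.11 and -0.084. Id1 and Id3 transcripts have a GC content of 55.2% and 55.6%, that of Id2 is 42.4%, and the median of 10116 tested rows is 50.4%. Bmp6, at 56.0% GC, deviated by -0.19 and -0.034 in replicate 2. With the trend in GC content removed and the replicate number as a block, the log2 difference of Id3 was -1.25 (limma adjusted p 0.00968, 53.4% of rows called) and that of Id1 was -0.32 (limma adjusted p 0.085). Some genes outside the list of BMP targets were low in replicate 2 too. Fstl3, listed with the secreted antagonists and modulators, deviated by -0.87 in Control and -2.94 with TGF-β1. Tcf3 deviated by -0.47 and -0.83. The cause of the low values in replicate 2 was not tested. Smad6, another BMP target, showed the same pattern, at 19.9, 6.34 and 19.5 FPKM in Control and 9.25, 2.92 and 8.18 FPKM with TGF-β1, and its log2 differences by replicate number were -1.03, -0.90 and -1.16. It was not called without a term for replicate (log2 difference -1.03, limma adjusted p 0.158) but was called lower with the replicate block (limma adjusted p 0.0025), with the term for the replicate 2 libraries (0.000715) and in replicates 1 and 3 alone (0.00612).

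The other genes of the pathway were looked up from lists made by known role, with earlier results of these data known. Of 58 genes listed, 48 had a row and 31 were tested, of which 14 were higher, 5 lower and 12 not called. That is 61.3% called, against 48.1% of all tested rows, and nothing is read from the difference. Their median log2 difference was 0.24, against -0.017 over all tested rows. Rescaled to the sum of protein-coding rows, 13 were higher and 9 lower. Of the 17 genes under the filter, 4 were called in the test without it, where 30.5% of all rows were called, Smad9, Chrdl1 and Kcp as lower and Acvrl1 as higher. Smad9, a transducer of BMP signals, was at 1.05, 0.649 and 0.844 FPKM in Control and at 0.0882, 0.0955 and 0.125 FPKM with TGF-β1 (log2 difference -0.74, limma adjusted p 0.00226).

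Among 10 tested secreted antagonists and modulators, 3 were higher, 3 were lower and 4 were not called. Among those that rose were Fstl1, from 219 ± 27.1 to 444 ± 29.4 FPKM (SD, n = 3, log2 difference 1.02, limma adjusted p 0.000832), and Crim1, from 29.9 ± 1.13 to 41.5 ± 0.716 FPKM (SD, n = 3, log2 difference 0.46, limma adjusted p 0.00236). Chrd, which encodes the BMP-binding protein chordin, fell most, from 1.62 ± 0.554 to 0.469 ± 0.193 FPKM (SD, n = 3, log2 difference -0.82, limma adjusted p 0.0167), and overlaps Thpo on the opposite strand. Dand5 (-0.69) and Twsg1 (-0.53) also fell. In replicates 1 and 3 alone, Chrd (limma adjusted p 0.0973) and Dand5 (limma adjusted p 0.0579) were not called. Fstl3 was not called without a replicate term (log2 difference 1.40, limma adjusted p 0.205) or with the replicate block (limma adjusted p 0.0688). It was called higher in replicates 1 and 3 alone (2.10, limma adjusted p 0.00311). With the term for the replicate 2 libraries its limma adjusted p was 0.043.

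Of 6 tested receptors and coreceptors, 2 were higher, 1 was lower and 3 were not called. Acvr1, which encodes a type I receptor of BMPs (ALK2), rose from 13.7 ± 1.18 to 44.1 ± 5.73 FPKM (SD, n = 3, log2 difference 1.61, limma adjusted p 0.000146). Its row overlaps Gm17409 on the opposite strand. The type II receptor gene Bmpr2 rose from 1.35 ± 0.631 to 3.29 ± 0.181 FPKM (SD, n = 3, 0.90, limma adjusted p 0.0121). It was not called in replicates 1 and 3 alone (0.88, limma adjusted p 0.0871). Rgma, a coreceptor gene, fell from 8.32 ± 0.838 to 2.61 ± 0.643 FPKM (SD, n = 3, log2 difference -1.38, limma adjusted p 0.000854). It overlaps A730056A06Rik on the opposite strand.

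Of 7 tested SMAD and SMURF genes, 4 were higher, 0 were lower and 3 were not called (Smad4, Smad5 and Smad6, the last of which was called lower with the replicate block). Smad7, the inhibitory SMAD that TGF-β1 itself induces, rose most, from 11.9 ± 1.84 to 39.3 ± 2.25 FPKM (SD, n = 3, log2 difference 1.66, limma adjusted p 0.000162). The genes of the ubiquitin ligases that target SMADs, Smurf1 and Smurf2, had log2 differences of 0.87 and 0.64, and Smad1, a transducer of BMP signals, had 0.78.

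Of 6 other BMP target genes tested, 4 were higher, 1 was lower and Smad6 was not called when all 6 libraries were fitted without a replicate term. As given above, Smad6 was called lower with the replicate block, with the term for the replicate 2 libraries and in replicates 1 and 3 alone. Hes1, also a Notch target, rose most, from 32.3, 21.4 and 22.2 FPKM to 69.2, 48.1 and 64.1 FPKM (log2 difference 1.23, limma adjusted p 0.00347). Runx2 (1.16), Msx2 (1.14) and Hey1 (1.08) rose as well. Atoh8 fell from 15.0, 16.4 and 21.8 FPKM to 0.634, 0.458 and 0.600 FPKM, a log2 difference of -3.57 (limma adjusted p 2.30e-05), against -2.47 for Id2. Tested targets of BMP thus went both ways without a replicate term, with Id2 and Atoh8 lower and Runx2, Msx2, Hey1 and Hes1 higher. With the term for the replicate 2 libraries, Smad6 (limma adjusted p 0.000715) and Id3 (limma adjusted p 0.0243) were called lower too. Of the E protein genes whose products pair with ID proteins, Tcf12 rose slightly, from 23.2 ± 0.0337 to 28.8 ± 2.0 FPKM (SD, n = 3, log2 difference 0.30, limma adjusted p 0.0206), whereas Tcf3 (-0.23, limma adjusted p 0.507) and Tcf4 (-0.33, limma adjusted p 0.071) were not called. Tcf12 was not called in replicates 1 and 3 alone (limma adjusted p 0.0945). With the GC trend removed and the replicate block its limma adjusted p was 0.145. Tcf12 overlaps Rpl15-ps2 on the opposite strand. Tcf4 was called lower with the term for the replicate 2 libraries (limma adjusted p 0.0427). The same held with the GC trend removed and the replicate block (limma adjusted p 0.0264). It was not called with the replicate block alone (limma adjusted p 0.0694) or in replicates 1 and 3 alone (limma adjusted p 0.164).

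**Figure D5:**
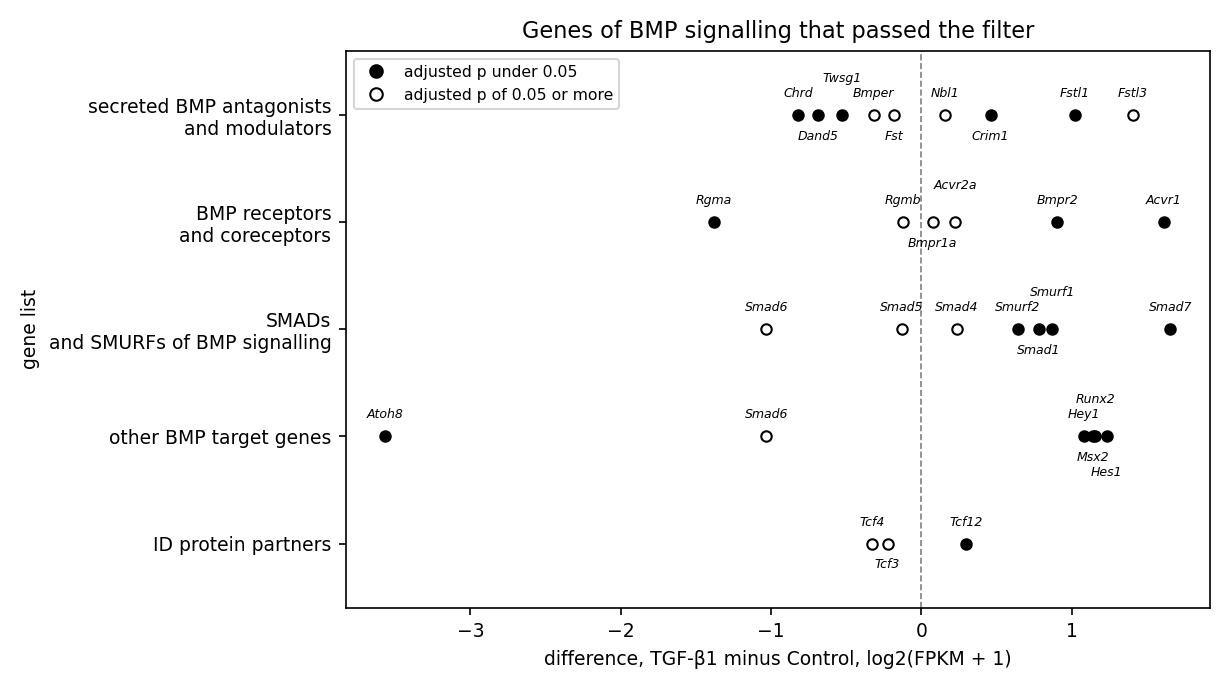
Difference between TGF-β1 and Control on the log2(FPKM + 1) scale (x) of tested genes from 5 lists of BMP signalling (y). Filled circles have an adjusted p under 0.05 and open circles do not, and Smad6 belongs to 2 lists. Smad7 and Acvr1 lie farthest to the right and Atoh8 farthest to the left.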

How the data were processed

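RNA-Seq libraries of 3 Control and 3 TGF-β1 samples were grouped by the labels. The authors removed low-quality reads and estimated FPKM with Cufflinks on mm9 (the submitters' processing notes name TopHat2 2.0.11), and deposited the FPKM values, 1 column for each library. Scaling between libraries is not stated, nor if a row sums its gene or gives only the transcript it names. No column was left unmatched. The authors used a count model. Counts were not used here, so limma 3.58.1 (R 4.3.3) was applied to log2(FPKM + 1) (mean-variance trend, two-sided, Benjamini-Hochberg over 11898 rows with a mean of at least 1 FPKM). Genes under the filter were taken from the same test on all rows. Since an exact 0 can be a failed estimate, groups with a 0 get no fold change.

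Fragments were recovered from FPKM steps (99.5 to 99.9% of low values within 0.1 of a whole number, assumed fragment 200 nt). Of 19730 rows, 19699 were found in GENCODE M1 on mm9 by transcript, and 19555 of these had the same symbol. Coordinates are 1-based. Sequences were read from the mm9 genome. On simulated data with a log2 change of 1 in 200 of 11898 rows, 68.5% were recovered and 6.16% of calls were false. In the data 48.1% of tested rows were called, and the simulated noise was independent between libraries, without the shared deviation of replicate 2. These shares therefore do not estimate recovery or false calls in the data.

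The 10 genes and the lists were chosen with earlier results of these data known. All 10 are named, and of each list the called genes with the largest rise and fall, other genes where a count was 5 or fewer, and the most abundant marker. Some listed genes are counted but not reported here by name. Replicate numbers are shared between groups, but correlations of same-numbered deviations were 0.0921, 0.232 and 0.0853 over tested rows and 0.210, 0.418 and 0.152 over protein-coding rows, where replicate 1 of Control and replicate 3 of TGF-β1 also reached 0.201. The labels name no shared culture or day, so pairing was left undecided, and the blocked value is given where it changes a call. Other steps used matplotlib 3.10.9, scipy 1.17.1, pandas 2.3.3 and numpy 2.4.6 in Python 3.11.15.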

Additional observations from a re-analysis of the deposited data

How the results depend on the processing

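Results were recomputed under 18 settings, 15 fixed at the start and 3 added after the data were seen (rescaling to the sum of protein-coding rows, and removal of the trend with GC content without and with the replicate block). Over these settings Bmp4, Bmp6, Grem1 and Id2 were called in the same direction in all 18, with log2 differences of -1.76 to -1.41, -2.05 to -1.69, 2.04 to 2.58 and -2.65 to -2.43. The number of the 10 genes called was 4 or 5 among those that passed each filter, that of pathway genes 15 to 23 and that of all rows 4195 to 6026. Leaving out 1 library gave 4 of the 10 genes, 18 to 20 pathway genes and 4419 to 5446 rows. With the replicate block, which pairs libraries by number, 5391 rows were called, Id3 was gained (limma adjusted p 0.0337) and Id4 was lost (0.0607). It changed no other call among the 10 genes, and among the pathway genes only Smad6 was gained. Rescaling to the sum of protein-coding rows shifted the median of all rows by -0.17, and the log2 ratio of the summed ligands went from -1.88 to -2.07, by the construction of that scaling. The sign turned for 3 genes that were not called. Bmp2 was at 0.024 with the GC trend removed, with and without the block, Bmp7 at -0.0057 in replicates 1 and 3 alone and Id1 at 0.0056 without TGF-β1 replicate 2, against -0.69 without Control replicate 2, the ends of its range when 1 library was left out. At 10.1 to 11.1 M fragments, Bmp2, Bmp7, Nog and Id4 rest on about 21 fragments or fewer per library, which limits any statement on them.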
